A study of Mus musculus with 10 samples.

Results

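Purified blood neutrophils were kept in culture for 2 h with or without a CC chemokine, and the arrays that received CCL2 or CCL5 were set against those that received neither. The arrays were chosen by their labels alone, 4 with a chemokine and 2 without, which makes 6 of the 10 arrays of the series. The chemokine arrays were G-CSF with CCL2, G-CSF with CCL5, CCL2 alone and CCL5 alone, and the chemokine-free arrays were G-CSF alone and no addition. CCL2 and CCL5 were used at 20 ng/ml and are labelled mCCL2 and mCCL5, and G-CSF is labelled rhGCSF with no dose of its own. All 6 cultures held circulating neutrophils of female nude NCR control mice, without tumors, in OptiMEM with 0.5% fetal bovine serum. NCR nude mice are athymic, so they hold few mature T cells. The other 4 arrays are of neutrophils frozen directly after purification, from mice bearing 4T1 mammary tumors and from control mice. Each cultured condition has 1 array and the labels do not say whether mice were pooled or shared, so p-values measure only the spread between these arrays, which may be technical.

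CCL2 and CCL5 are small secreted proteins that act on seven-transmembrane receptors coupled to Gi proteins. CCL2 acts mainly through CCR2, the receptor that draws monocytes out of the bone marrow, and CCL5 acts through CCR1 and CCR3, among others. Receptor engagement activates phospholipase C beta, PI3-kinase gamma and Rac proteins, which drive migration and adhesion. Resting neutrophils are recruited mainly by CXC chemokines through CXCR2, whereas G-CSF, the cytokine that drives neutrophil production and release, acts through CSF3R and STAT3. The comparison asks what the chemokines, pooled, did to the RNA of these cells in culture, and how large an effect the 6 arrays leave possible.

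The arrays read 45281 probes, of which 15513 (34.3%) were detected, with a detection p-value below 0.05, on at least 2 of the 6 cultured arrays and were tested. Levels below are log2 of the background-corrected, quantile-normalized signal, and the median tested probe averaged 6.26. The 4 chemokine arrays had between 13227 and 14846 detected probes, against 14639 on the array with G-CSF alone and 13967 on the array with no addition. Within G-CSF levels the number of detected probes on chemokine arrays minus that on chemokine-free arrays averaged -348 (exact permutation p = 0.333, two-sided, where the smallest p the design allows is 0.111). The label of the cells was checked against 11 neutrophil markers on the array, of which 10 were detected on all 6 arrays, and their median level was 12.7 to 12.9.

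No probe passed the test for a change with a chemokine. In the additive limma fit, with G-CSF as a block and 3 residual degrees of freedom, 0 of 15513 probes passed an adjusted p of 0.05 (0%), and the smallest adjusted p was 0.9996. At an unadjusted p below 0.05 there were 612 probes (3.95%), of which 265 (1.71%) were higher and 347 (2.24%) lower with a chemokine. All 4 chemokine arrays lay above their own chemokine-free array for 1547 probes (9.97%) and below it for 1627 (10.5%). The change of a probe is the mean log2 difference of chemokine over chemokine-free arrays, and it was positive for 48.8% of the probes. It ranged from -0.83 to 0.97 with a median of -0.01 and a median size of 0.13, against a median standard error of 0.19. Thus 0 probes had an average change of 2-fold or more in either direction, and 158 (1.02%) had one of 1.5-fold or more. In the same fit, G-CSF changed 4198 probes (27.1%), 2220 of them higher and 1978 lower, and 1229 probes (7.92%) had a fitted G-CSF change of over 2-fold.

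**Figure D1:**
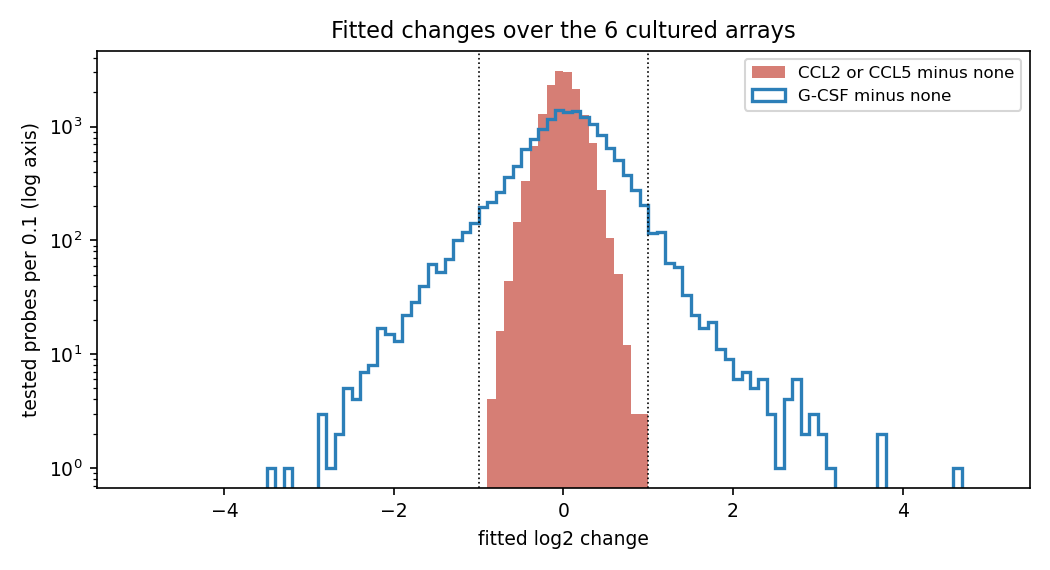
Distribution over the 15513 tested probes of the fitted log2 change for any chemokine over none and, from the same fit, for G-CSF over none (log2 units on the x axis, number of probes on the y axis). All chemokine changes lie between -0.83 and 0.97, while those of G-CSF reach from -3.44 to 4.67.

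The upper bound was read from the 95% confidence interval of each probe. It bounds the average over both chemokines and both G-CSF levels, judged against differences between these conditions, not the effect in a single condition. For 15106 probes (97.4%) the whole interval lay within a 2-fold change in either direction, and for 8185 (52.8%) it lay within 1.5-fold. The median interval reached 0.42 on the log2 scale, or 1.34-fold, to either side of the estimate. A rise of over 2-fold lay inside the interval of 198 probes, and a fall of over 2-fold inside that of 210. The precision differed with the brightness of a probe, but not in steps of 1 direction. From the dimmest 3879 probes to the brightest 3878, in 4 sets, the share with intervals within 1.5-fold was 38.8%, 34.2%, 57.8% and 80.2%. When the intervals were widened so that all 15513 held jointly at 95% (Bonferroni), 66% of the probes lay within 4-fold and 99.1% within 8-fold. The statement that most probes moved by less than 2-fold therefore holds probe by probe and not for every probe at once.

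The highest upper bound was that of Scgb1a1, a secreted protein of airway club cells, which was named after its values were seen. It read 9.05 with G-CSF and CCL2 and 7.28 with G-CSF and CCL5, against 5.69 with G-CSF alone. Without G-CSF it read 4.70 with CCL2 and 7.75 with CCL5, against 7.16 with no addition. The 4 chemokine arrays spanned more than the whole range of the 2 chemokine-free arrays, and the change of 0.77 ± 0.86 (SE) had an interval of -1.13 to 2.66, or up to 6.33-fold higher.

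**Figure D2:**
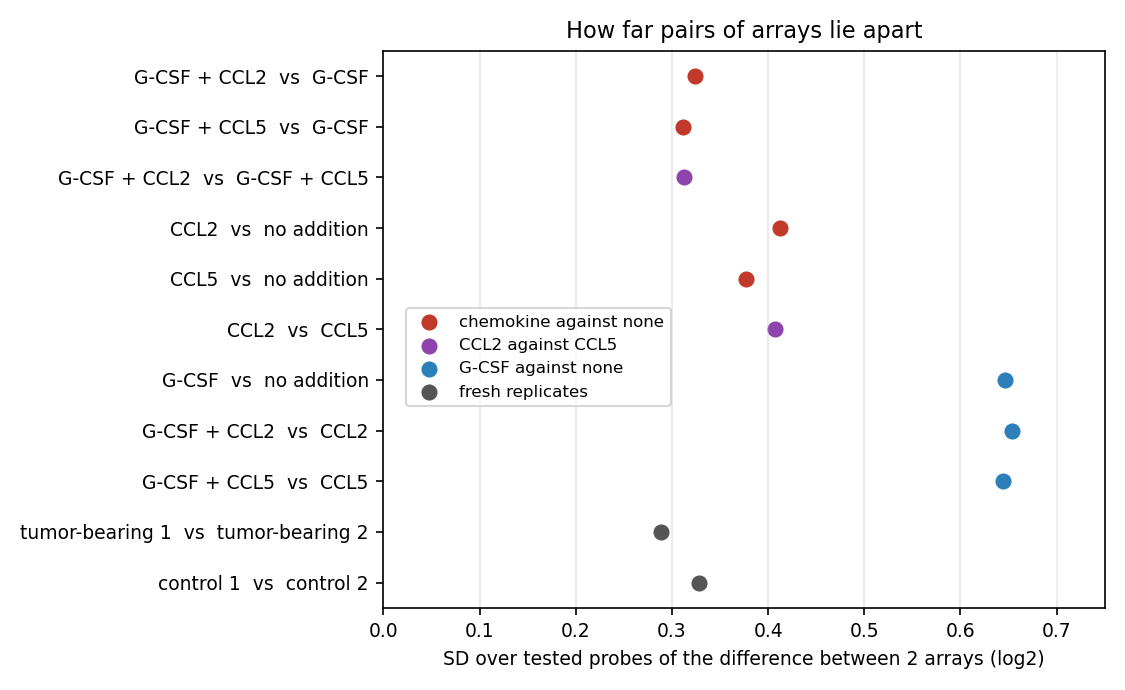
Spread of the log2 differences between arrays (SD over 15513 probes, x axis) for each pair that differs by a chemokine, by which chemokine, or by G-CSF, and for the 2 fresh replicate pairs. Pairs with a chemokine against none have an SD of 0.312 to 0.412, against 0.644 to 0.654 for pairs that differ by G-CSF and 0.289 to 0.328 for the fresh replicate pairs.

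The arrays could also be compared as pairs. With G-CSF in both, the array with CCL2 differed from the one without a chemokine by an SD of 0.324 over the 15513 probes, and the array with CCL5 by 0.312. The 2 chemokine arrays of that pair of conditions differed from each other by 0.313. Without G-CSF, the differences from the array with no addition had an SD of 0.412 for CCL2 and 0.377 for CCL5, and the 2 chemokine arrays differed by 0.407. Arrays with a chemokine thus lay about as far from each other as from their chemokine-free array. The fresh replicate arrays, which share a treatment, differed by 0.289 in tumor-bearing mice and by 0.328 in control mice. Probes over 2-fold apart numbered 39 and 43 with G-CSF and 356 and 235 without it (0.251%, 0.277%, 2.29% and 1.51%), each for CCL2 and then CCL5 over none. Pairs that differed by G-CSF had an SD of 0.644 to 0.654 and between 1662 and 1734 probes over 2-fold apart.

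The pooled effect could be taken apart by G-CSF, since the arrays at each level are not shared. The mean chemokine change with G-CSF and that without it had Pearson's r = -0.06 and Spearman's rho = -0.07 across the 15513 probes, which are not independent of each other. Both changes were positive for 3629 probes and both negative for 3719, while 8165 (52.6%) had opposite signs. Over 1.5-fold changes numbered 577 with G-CSF and 1381 without it, and 30 probes were over 1.5-fold in the same direction at both levels, which is 5.2% of the first set and 2.17% of the second. Another 39 were over 1.5-fold in opposite directions. Over 2-fold changes numbered 15 with G-CSF and 130 without it, and 0 probes were over 2-fold at both levels. With sets this small among 15513 probes, a small overlap is not a result about the probes. In the limma interaction test, 0 probes passed (0%), the smallest adjusted p was 0.911, and 818 (5.27%) had an unadjusted p below 0.05. This count rested on single arrays, since it was 86 without the array with CCL5 alone and 13 without that with CCL2 alone, and it was 2 when arrays were scaled to one median.

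**Figure D3:**
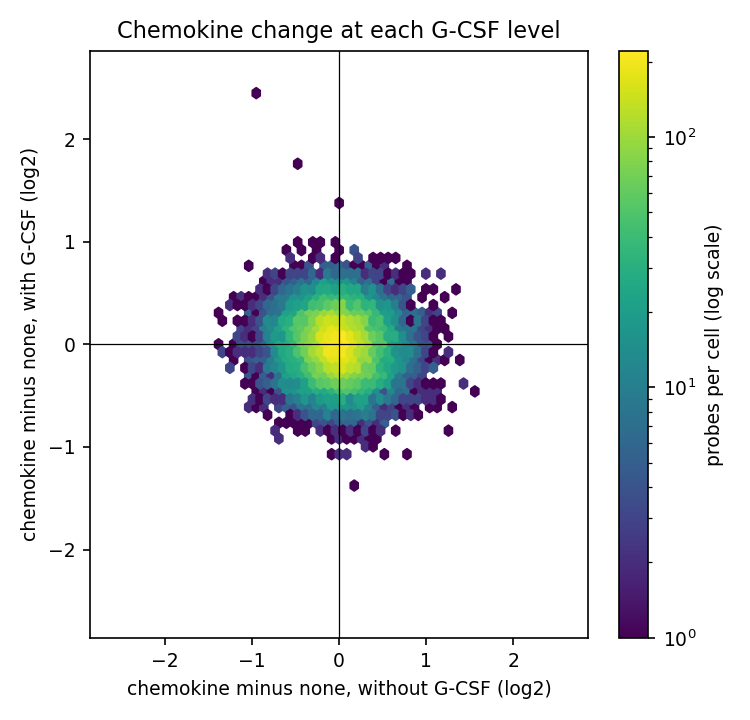
Mean log2 chemokine change with G-CSF against the same change without G-CSF, as the number of the 15513 tested probes per cell (color, log scale). The changes had r = -0.06 and an SD of 0.277 with G-CSF and 0.338 without it. Of the probes, 52.6% lie in the quadrants of opposite sign.

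No probe passed a test for either chemokine alone or for the difference between them. With the chemokine at 3 levels, 0 probes passed the limma test for CCL2 over none (0%), with 727 (4.69%) at an unadjusted p below 0.05. For CCL5 over none 0 probes passed (0%), with 576 (3.71%) at an unadjusted p below 0.05. For CCL2 minus CCL5, 0 probes passed (0%), 768 (4.95%) had an unadjusted p below 0.05, and the differences ranged from -1.11 to 0.95. Leaving out the array with CCL2 alone gave 1 probe for CCL2 over none, and leaving out that with G-CSF and CCL2 gave 1 for CCL2 minus CCL5. The largest estimated CCL2 effects were -1.07 and 1.27 and the largest CCL5 effects -0.998 and 1.09 on the log2 scale, and both share the chemokine-free arrays. A missed threshold does not show that the 2 chemokines act alike.

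Genes are given next by their place in the chemokine response, each read from its brightest probe. Ccr2 (2 probes), the receptor of CCL2, and Ccr1 (1 probe), a receptor of CCL5, were detected on 0 of the 6 arrays. Ackr2, a decoy receptor that takes up CC chemokines without signalling, was detected on 1 of 6. Of the 14 CC chemokine receptors and decoys with a probe, 4 were tested, and 0 of these passed the test.

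Ccrl2, a receptor-like protein that neutrophils express and that does not signal, was the brightest of them. Its level was 12.28 and 12.22 with G-CSF and CCL2 or CCL5, against 12.27 with G-CSF alone. It was 12.46 with CCL2 and 12.40 with CCL5, against 12.16 with no addition, so that 3 of the 4 chemokine arrays lay above their own chemokine-free array. The pooled change was 0.13 ± 0.17 (SE), with an interval of -0.25 to 0.51.

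Ccr3, the eotaxin receptor that also binds CCL5, was dim. It had 4.75 with G-CSF and CCL2 and 4.86 with G-CSF and CCL5, against 5.40 with G-CSF alone. It had 5.84 with CCL2 and 6.04 with CCL5, against 4.64 with no addition, where it was not detected. With that array set at its detection floor, the observed Ccr3 mean was at least 2.14-fold higher with a chemokine in the absence of G-CSF. The fitted change was -0.59 with G-CSF and 1.30 without it, a difference of -1.89 (limma interaction, adjusted p = 0.911). The pooled change of 0.35 ± 0.34 averages these opposite values, and leaving out 1 chemokine-free array gives either of them.

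The genes that encode the added proteins, and the G-CSF receptor, were read as well. Ccl2 had 5.47 with G-CSF and CCL2 and 5.57 with G-CSF and CCL5, against 4.90 with G-CSF alone, and 4.44 with CCL2 and 4.63 with CCL5, against 4.40 with no addition. Its 4 chemokine values each exceeded their own chemokine-free value, but it was detected on 2 of the 4 chemokine arrays and 1 of the 2 others. The change was 0.38 ± 0.19 with an interval of -0.03 to 0.79. Ccl5 itself had 6.57 and 6.67 with G-CSF and CCL2 or CCL5, against 6.72 with G-CSF alone, and 7.26 with CCL2 and 7.77 with CCL5, against 7.85 with no addition. These values lay below the chemokine-free ones by -0.22 ± 0.19 on average, within an interval of -0.65 to 0.21. Csf3r, the G-CSF receptor, was read by 5 probes, all detected on 6 of 6 arrays. Its brightest probe changed by 0.10 ± 0.17 (interval -0.28 to 0.47), and the other 4 gave -0.21 to -0.01.

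Over the 15 lists of processes, 250 genes were tested and 0 passed (0 of 15513 probes, 0%). At an unadjusted p below 0.05 there were 5 (2%), against 3.95% of all tested probes, with Cxcl1 and Isg15 higher and Hsph1, Rac1 and Rgs2 lower. The median change over the 250 genes was 0.04, against -0.00 over all 8539 tested genes. The interval lay within 2-fold for 245 of the 250 (98%) and within 1.5-fold for 153 (61.2%), against 97.3% and 54.9% of all genes. The 5 whose interval went beyond 2-fold were Cat, Ccr3, Hsph1, Il23a and Plcb3. Of the listed genes, 35 (14%) had all 4 chemokine arrays above their own chemokine-free array and 25 (10%) all 4 below it, against 10.4% and 10.2% of all tested genes.

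**Figure D4:**
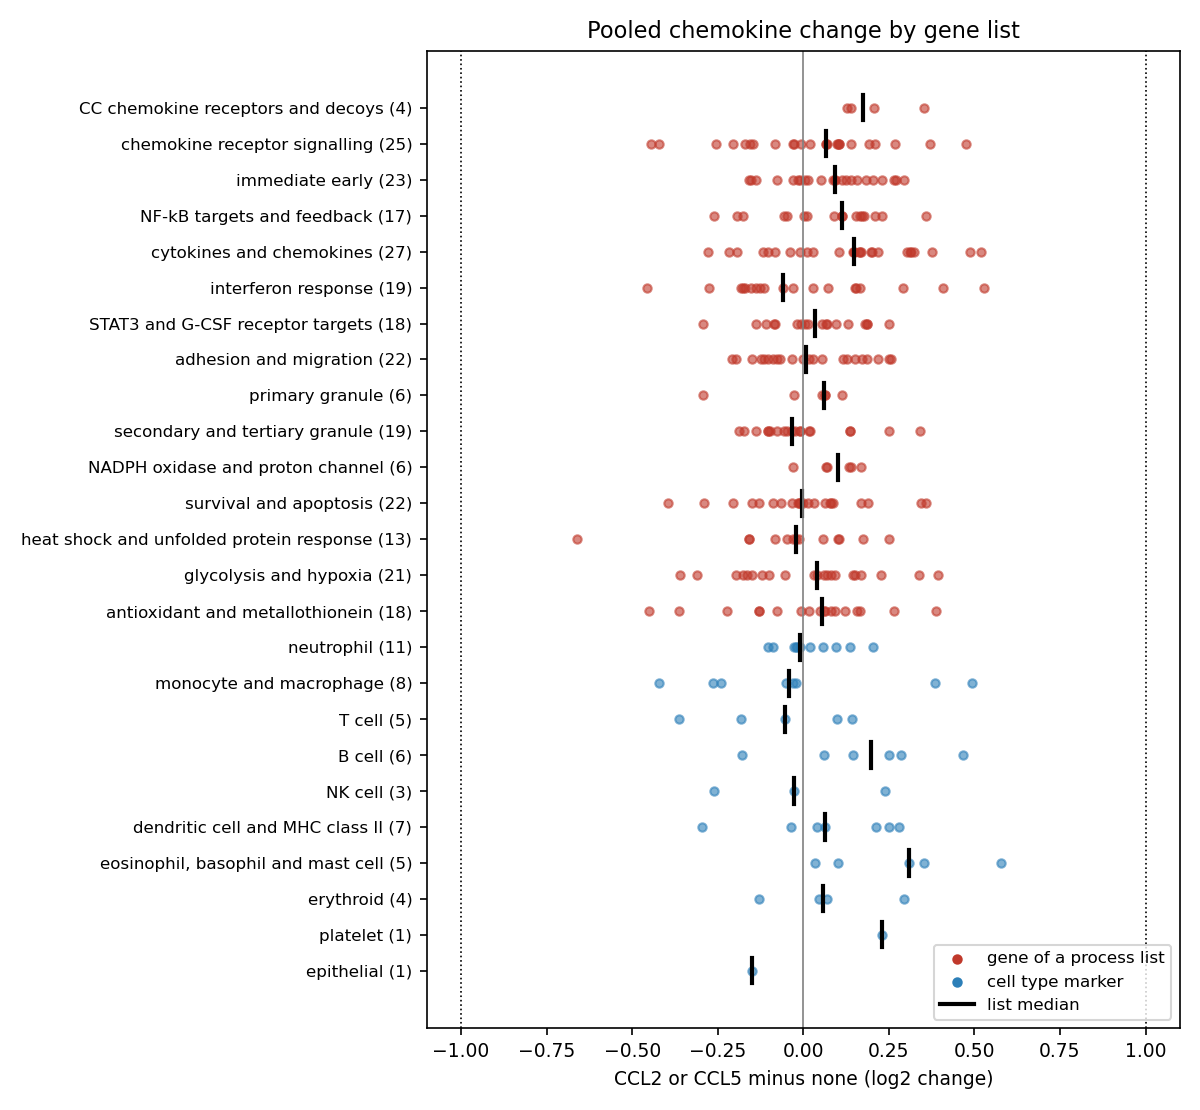
Pooled log2 chemokine change of every tested member (points) of each gene list, with the list's median (bar). All list medians lie between -0.15 and 0.31, and 0 members pass the test.

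The signalling machinery below the receptors held 25 tested genes, of which 14 had positive and 11 negative changes, and all 4 chemokine arrays lay above in 2 and below in 5 (background 10.4% and 10.2%). Rac1, a small GTPase that drives actin polymerization at the leading edge, had 7.30 with G-CSF and CCL2 and 7.24 with G-CSF and CCL5, against 7.83 with G-CSF alone. It had 7.56 with CCL2 and 8.04 with CCL5, against 8.13 with no addition. All chemokine values lay below their own chemokine-free value, although the CCL5 value without G-CSF lay above that of G-CSF alone, and the change was -0.44 ± 0.19 (interval -0.87 to -0.02). Rgs2, which shuts off G proteins, had 5.18 and 5.09 with G-CSF and CCL2 or CCL5, against 5.54 with G-CSF alone. It had 7.39 with CCL2 and 7.03 with CCL5, against 7.64 with no addition. Its change was -0.42 ± 0.18 (interval -0.82 to -0.03), and its other probe gave -0.37. The phospholipases Plcb2 and Plcb3 had changes of 0.37 and 0.48, with intervals that included 0.

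Immediate early genes and targets of NF-kB are transcribed soon after receptors on the cell surface are engaged. Of the 23 tested immediate early genes, 16 had positive changes, against 49.5% of all tested genes. The largest change was 0.29 for Jun, a subunit of AP-1, and the lowest was -0.16. All 23 intervals lay within 2-fold, between -0.61 and 0.76, and the median change was -0.04 with G-CSF and 0.15 without it. The 17 NF-kB targets had a median of 0.11 and likewise all intervals within 2-fold. Among them Birc3, an inhibitor of apoptosis, had 0.36, and Tnfaip3, which limits NF-kB signalling, had -0.26. Of these 40 genes, 0 had an unadjusted p below 0.05, against 3.95% of all tested probes.

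Among the cells' own cytokines and chemokines, 19 of 27 tested genes had positive changes, against 49.5% of all tested genes, and 0 passed the test. With arrays scaled to one median, 34.6% of all tested probes had positive changes in place of 48.8%, so such counts depend on the scaling. Of the 27 genes, 8 (29.6%) had all 4 chemokine arrays above their own chemokine-free array and 3 (11.1%) all 4 below, against 10.4% and 10.2% of all tested genes. The median change was 0.15, with 0.11 in the presence of G-CSF and 0.17 in its absence. Cxcl1, a ligand of CXCR2 that attracts neutrophils, had 10.64 with G-CSF and CCL2 and 10.46 with G-CSF and CCL5, against 10.00 with G-CSF alone. It had 10.80 with CCL2 and 10.55 with CCL5, against 10.24 with no addition. The 4 chemokine values did not overlap the 2 others, and the change was 0.49 ± 0.18 (interval 0.10 to 0.88, limma adjusted p = 0.9996). Il23a, named for its interval, had the highest change of the list, 0.52, with an interval of -0.07 to 1.11. The bright inflammatory cytokine Il1b, at 13.93 and 13.98 with G-CSF and a chemokine against 14.06 with G-CSF alone, and at 13.96 and 13.85 against 14.04 with no addition, had an interval of -0.49 to 0.25. For Il1a the probes differed. The brightest gave 0.16 (interval -0.50 to 0.83), with -0.50 in the presence of G-CSF and 0.82 in its absence. Another gave 0.65 (interval 0.26 to 1.04), with all 4 chemokine arrays above their own chemokine-free array. Both had an adjusted limma p of 0.9996.

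**Figure D5:**
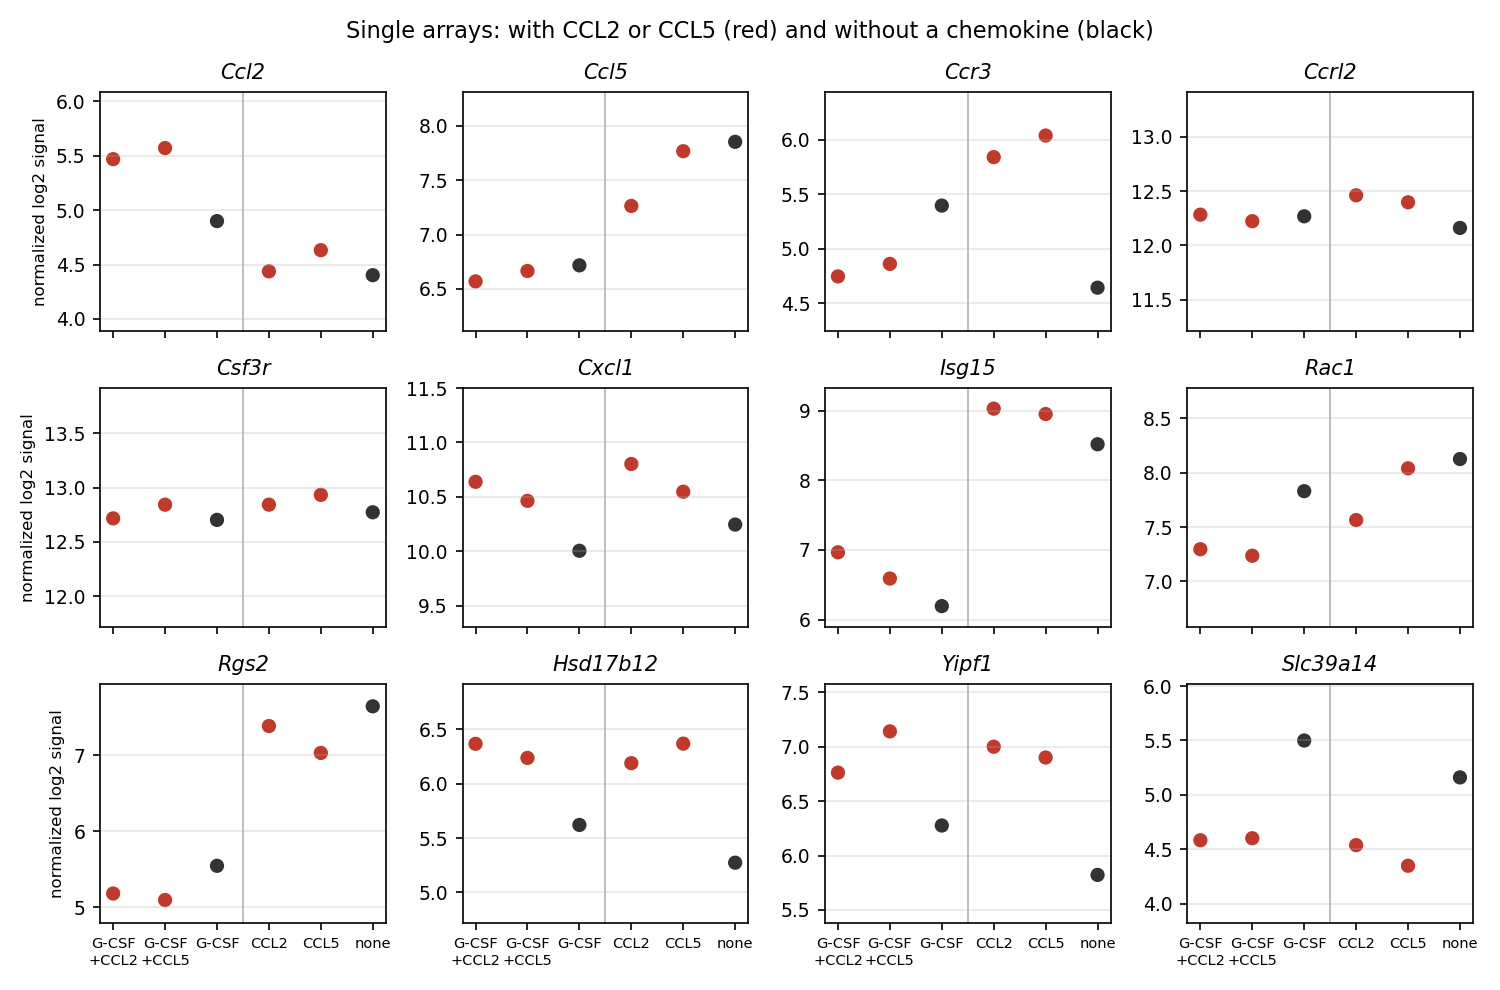
Log2 level on each of the 6 cultured arrays (points) for genes that encode the added proteins or receptors, for list genes and for genes with the smallest unadjusted p, with the chemokine arrays left of their chemokine-free array at each G-CSF level. The vertical axes differ in range between panels, and 0 of these genes pass the adjusted test.

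Interferon-stimulated genes had a median of -0.06 over 19 tested members, with 8 positive and 11 negative changes. Isg15, a ubiquitin-like interferon-induced protein, stood at 6.97 and 6.59 with G-CSF and CCL2 or CCL5, against 6.19 with G-CSF alone. It stood at 9.03 with CCL2 and 8.95 with CCL5, against 8.52 with no addition. All 4 chemokine values exceeded their own chemokine-free value, while the gap between G-CSF levels was larger than any of these steps. Its change was 0.53 ± 0.18 (interval 0.13 to 0.93). Other values were negative, such as -0.46 for Gbp5, a guanylate-binding protein. Oas3, a sensor of double-stranded RNA, had -0.27 on its brightest probe and 0.31 on another.

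Effector genes of neutrophils gave intervals within 2-fold, as did 97.3% of all tested genes. All 6 tested genes of the NADPH oxidase and its proton channel had intervals within -0.44 to 0.67, with 0.14 for Ncf1, a cytosolic subunit, and -0.03 for Cyba, the membrane subunit p22phox. The 19 genes of secondary and tertiary granules had a median of -0.03 and all intervals within 2-fold, as did the 6 of primary granules (median 0.06). Of the 22 adhesion and migration genes, all had intervals within 2-fold, between -0.76 and 0.88, and their median was 0.01. Cxcr2, the main chemokine receptor of neutrophils, had -0.09, Icam1, an adhesion ligand, had 0.17, and Itgal, the alpha chain of LFA-1, had -0.15. The 18 STAT3 and G-CSF response genes had a median of 0.03, and the 22 survival genes one of -0.00, with 0.34 for Cflar, which blocks caspase activation. Bcl2l1, which blocks apoptosis, had -0.39 on its brightest probe, while its other 2 probes gave -0.28 and 0.21.

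Stress and metabolism lists gave 1 gene with an unadjusted p below 0.05. Hsph1, a heat shock protein that acts as nucleotide exchange factor for Hsp70, had 4.52 and 4.52 with G-CSF and CCL2 or CCL5, against 5.13 with G-CSF alone. It had 4.67 with CCL2 and 4.36 with CCL5, against 5.23 with no addition, and it was detected on 0 of the 4 chemokine arrays and on both others. The probe thus entered the test only through the chemokine-free arrays. The change was -0.66 ± 0.18 (interval -1.05 to -0.27). With undetected arrays set at the detection floor, the observed mean was at least 1.25-fold lower with a chemokine. The heat shock and unfolded protein list as a whole had a median of -0.02 over 13 genes. Glycolysis and hypoxia genes had a median of 0.04 over 21 genes. Ldha, lactate dehydrogenase A, was -0.31, from 11.79 and 11.67 with G-CSF and CCL2 or CCL5 against 12.04 with G-CSF alone, and from 10.10 with CCL2 and 10.37 with CCL5 against 10.54 with no addition, with an interval of -0.70 to 0.08.

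Among genes read from their brightest probe, those with the smallest unadjusted p were mostly dim. Other probes of a gene were not ranked. The 10 highest-ranked on the positive side had changes of 0.66 to 0.97 and the 10 on the negative side of -0.83 to -0.64. In all 20 the 4 chemokine arrays lay on 1 side of their own chemokine-free array, a pattern that ranking by p favors. On the negative side 6 of 10 were detected on 0 of the 4 chemokine arrays, and on the positive side 2 of 10 on 0 of the 2 chemokine-free arrays. Those probes passed the detection filter only through the group where they are high, so their split in detection is not separate evidence. None of the 20 had an interval wholly within 2-fold, and none passed the limma test (adjusted p = 0.9996). For a single gene, an exact permutation test within G-CSF levels could give no p below 0.111.

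Yipf1, a Golgi membrane protein, had 6.76 with G-CSF and CCL2 and 7.14 with G-CSF and CCL5, against 6.28 with G-CSF alone. It had 7.001 with CCL2 and 6.90 with CCL5, against 5.82 with no addition, so the chemokine arrays did not overlap the others. Its change was 0.90 ± 0.19 (interval 0.47 to 1.33). Hsd17b12, an enzyme of long-chain fatty acid elongation, had 6.37 with G-CSF and CCL2 and 6.24 with G-CSF and CCL5, against 5.62 with G-CSF alone. It had 6.19 with CCL2 and 6.37 with CCL5, against 5.27 with no addition. The change of 0.84 ± 0.18 was not shared by its other probe, which gave -0.11. Likewise Fut8, a fucosyltransferase, had 0.74 on its brightest probe and -0.02 on another.

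Ikzf3, a lymphoid transcription factor, had 5.27 with G-CSF and CCL2 and 5.18 with G-CSF and CCL5, against 4.50 with G-CSF alone. It had 5.38 with CCL2 and 5.39 with CCL5, against 4.61 with no addition, and it was detected on neither chemokine-free array. It thus entered the test only through the chemokine arrays. With undetected arrays at the detection floor, its observed mean was at least 1.40-fold higher with a chemokine. Its change was 0.75 (interval 0.38 to 1.12), and that interval starts lower, at 1.30-fold. Beside it, the 6 tested B cell markers had 5 positive changes, against 49.5% of all tested genes, and a median of 0.20. Cd22, a B cell receptor inhibitor, had 0.47 on its brightest probe and -0.08 on another. The summed B cell marker level was 9.24 to 11.02 on the chemokine arrays, against 9.22 to 10.89 on the chemokine-free arrays. Each range spans both G-CSF levels, so their overlap does not bound a chemokine change. The part of B cells in the Ikzf3 value was not tested. Rfxap, a subunit of the factor that drives MHC class II genes, had 7.71 with G-CSF and CCL2 and 7.57 with G-CSF and CCL5, against 6.82 with G-CSF alone. It had 8.02 with CCL2 and 7.85 with CCL5, against 7.37 with no addition, a change of 0.70 ± 0.18.

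On the negative side, Poc1a, a centriole protein, had the smallest p of all probes. It read 4.43 with G-CSF and CCL2 and 4.49 with G-CSF and CCL5, against 5.32 with G-CSF alone, and 4.50 with CCL2 and 4.35 with CCL5, against 5.19 with no addition. All 4 chemokine arrays were below detection and both others above it, so the probe entered the test only through the chemokine-free arrays. With undetected arrays at the detection floor, the observed mean was at least 1.32-fold lower with a chemokine (change -0.82 ± 0.17, interval -1.19 to -0.44). Slc39a14, a zinc and iron importer, had 4.582 and 4.6004 with G-CSF and CCL2 or CCL5, against 5.50 with G-CSF alone, and 4.54 with CCL2 and 4.35 with CCL5, against 5.16 with no addition. It too entered the test only through the chemokine-free arrays, and its observed mean was at least 1.39-fold lower (interval of the change -1.19 to -0.43). Crtc2, a coactivator of CREB, had 5.27 with G-CSF and CCL2 and 5.94 with G-CSF and CCL5, against 6.49 with G-CSF alone, and 5.93 with CCL2 and 6.01 with CCL5, against 6.66 with no addition. The groups did not overlap, and the change was -0.79. Oas1b, of the oligoadenylate synthetase family, had -0.72 on its brightest probe and 0.01 on another.

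Markers of cells other than neutrophils were read on the same arrays. Of 40 tested genes, 0 passed (0%), and 7 (17.5%) had all 4 chemokine arrays above and 2 (5%) all 4 below their own chemokine-free array, against 10.4% and 10.2% of all tested genes. Of 9 T cell markers on the array, 5 were detected on all 6 arrays, among them Cd3e, Cd3g, Cd8b1 and Il7r, and 3 on none (Cd4, Cd8a and Cd5). Of 7 NK cell markers, 2 were detected on all 6, Prf1 and Klrd1, and 4 on none, among them Ncr1 and Klrb1c. Platelet markers Pf4 and Ppbp were detected on 0 of 6. The summed T cell level was 10.24 to 11.96 on the chemokine arrays, against 10.29 to 11.99 on the chemokine-free arrays, and the summed NK cell level was 9.003 to 9.50, against 8.72 to 9.41. Each of these ranges, like those of the sums below, spans both G-CSF levels, so their overlap does not bound a chemokine change. In bulk RNA fewer cells of a type and less RNA per cell cannot be told apart. The summed neutrophil marker level was 16.29 to 16.36 on the chemokine arrays, against 16.30 to 16.34 on the chemokine-free arrays. The summed monocyte and macrophage level was 11.16 to 11.32, against 11.18 to 11.31. Of 11 eosinophil, basophil and mast cell markers on the array, 1 was detected on all 6 arrays. The 5 tested ones all had positive changes, against 49.5% of all tested genes. Their median was 0.31, with -0.07 in the presence of G-CSF and 0.53 in its absence. Their summed level was 7.14 to 8.46 on the chemokine arrays, against 7.25 to 7.78 on the others, and Prg2, the eosinophil major basic protein, led them with 0.58 ± 0.27 (interval -0.01 to 1.16). Prg2 had 4.67 with G-CSF and CCL2 and 5.02 with G-CSF and CCL5, against 4.596 with G-CSF alone. It had 6.16 with CCL2 and 7.05 with CCL5, against 5.69 with no addition. It was not detected with G-CSF and CCL2 or with G-CSF alone.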

How the data were processed

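Total RNA of neutrophils, extracted with Trizol and labelled with Cy3 per the labels' protocols, was read on Illumina mouse bead arrays. The deposited non-normalized table gives, per the file headers, each probe's average signal intensity, its number of beads (a count), the standard error of the bead signals and a detection p-value. The authors' processed values in a second deposited table are on a log2 scale. They matched quantile-normalized log2 intensities without background correction (largest difference 0.00531) and served as an alternative. Partek is named in the submitters' processing notes, but its version is not given in the sources used here.

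In R 4.3.3 with limma 3.58.1, intensities were background-corrected with nec (normexp, offset 16), which takes the negative controls' mean and spread from the deposited detection p-values, put on a log2 scale and quantile-normalized over all 10 arrays. The table names 1 gene for 34885 of its 45281 probes, several for 18 and no gene for 10378. Probes with a detection p-value below 0.05 on at least 2 of the 6 cultured arrays were fitted, which includes probes that pass through 1 group alone. A gene was read from the probe with the highest mean that names it alone. Chemokine and G-CSF were additive terms, with moderated variances (eBayes), two-sided tests and p-values adjusted by Benjamini and Hochberg over all 15513 probes at 0.05. CCL2 and CCL5 effects came from a fit with 3 chemokine levels, and a further fit added the interaction. Each cultured condition has 1 array, which leaves 3 residual degrees of freedom in the additive fit. These come from differences between CCL2 and CCL5 arrays and between the chemokine changes with and without G-CSF, not from replicates. Real differences of either kind thus count as spread. "At least" folds set each undetected array to no less than the lowest level detected on it. They compare observed levels and carry no sampling error, so they are not lower limits of a true effect. Changes carry standard errors of the fit. The fits were tested on simulated data.

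The comparison, the 25 gene lists (15 of processes, 10 of cell types) and the alternatives were chosen with earlier results of these data known. Named genes are the 10 per direction with the smallest p, up to 2 per list and direction, and the genes that encode the added proteins or receptors, while Scgb1a1, Il1a, Il1b and Il23a were named after their values were seen. A gene of the receptor group is not reported here.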

Additional observations from a re-analysis of the deposited data

Results flagged for a closer look

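For 5 of 109 values examined, 1 of the 4 chemokine arrays stood apart from the other 3 by more than the 95% critical value of Dixon's test for 4 values. Chance alone gives this in about 1 of 20 groups. The 4 arrays differ in G-CSF, which this check does not take out. Crtc2 read 5.267 with G-CSF and CCL2, against 5.932 to 6.006 on the other 3. F13a1, the A chain of coagulation factor XIII, read 4.676 with CCL2, against 5.742 to 5.907. Itgal was high with CCL2, at 11.81 against 11.4 to 11.44. Mt2, a metallothionein, was high with G-CSF and CCL5, at 5.055 against 4.639 to 4.694. Nqo1, a quinone reductase, read 5.665 with CCL5, against 6.28 to 6.403.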

How the results depend on the processing

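The pooled comparison had 0 probes called in the main setting and in all 17 alternatives, including each array left out in turn and the authors' processed values. Probes at an unadjusted p below 0.05 numbered from 134 without the G-CSF term to 1995 of 45281 with no filter on dim probes. Scaling each array to one median moved the median change to -0.08, with 34.6% of changes positive and 139 higher against 560 lower at an unadjusted p below 0.05, in place of 48.8%, 265 and 347. That scaling also called 2 probes for the interaction and gave 809 probes with all 4 chemokine arrays above and 2363 with all 4 below, in place of 1547 and 1627. Without the array with CCL5 alone the interaction fit called 86 probes, and without that with CCL2 alone 13 (range 0 to 86); it could not be fitted without a chemokine-free array. CCL2 minus CCL5 had 0 to 1 calls (1 without the array with G-CSF and CCL2), CCL2 over none 0 to 1 (1 without the array with CCL2 alone) and CCL5 over none 0 to 0. The interaction fit without CCL5 alone or CCL2 alone has only the 2 chemokine arrays with G-CSF for its residual spread. These differed by an SD of 0.313, against 0.407 for the 2 without G-CSF. The cause of the counts was not tested. Probes bounded within 2-fold numbered 11202 to 15185 with an array left out, with 72.2% left when the array with G-CSF alone was dropped and 79.0% without the array with no addition. They numbered 12212 (78.7%) without the G-CSF term, 44570 of 45281 with no filter and 8298 of 8539 with 1 probe per gene. Without background correction they were 15512, since those values are compressed. With no filter, 4797 probes had all 4 chemokine arrays above and 4787 below, with 1 probe per gene 884 and 869, and with detection on all 6 arrays 1082 below. With an array left out, fewer differences are compared and the counts were 2287 to 5241 above and 2401 to 5268 below. No paired analysis was possible because the cultured arrays carry no replicate numbers that could pair them (1 array per condition).

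Of 1768 values for 106 named genes, 1731 kept their sign, 37 in 24 genes did not, and 0 passed the test. Batf3 was 0.002682 with median scaling, and Csf3 was -0.002775 without background correction and -0.002773 in the authors' values. With an array left out, signs turned within these ranges: Batf3 -0.2827 to 0.2104, Ccr3 -0.5938 to 1.3, Ccr6 -0.04261 to 0.4546, Ccrl2 -0.01498 to 0.2676, Cd3g -0.08099 to 0.2765, Chil3 -0.09133 to 0.5918, Clec4d -0.04388 to 0.3193, Csf3 -0.1055 to 0.3139, Ctsc -0.6366 to 0.04943, Cyba -0.2748 to 0.2161, Fasl -0.6766 to 0.0936, Hbb-b2 -0.5574 to 0.2974, Hsp90b1 -0.5484 to 0.2319, Klrd1 -0.3772 to 0.3204, Lyz1 -0.0654 to 0.005046, Lyz2 -0.06233 to 0.2862, Ms4a7 -0.05868 to 0.8253, Ngp -0.4994 to 0.1544, Nkg7 -0.703 to 0.1811, Oas3 -0.5914 to 0.04226, Prf1 -0.1618 to 0.6374, Rel -0.554 to 0.1674, Retnlg -0.2055 to 0.001601 and Slc4a1 -0.1323 to 0.2707. The limits are 1 array per condition, dim probes with wide intervals, and a bound that holds probe by probe.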

Other observations

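Probes that differed by over 2-fold, at an adjusted p below 0.05, between fresh neutrophils of tumor-bearing and control mice were read in culture, as a description. Of the 498 probes higher in tumor-bearing mice, 54.4% had a positive chemokine change in culture, with a median of 0.02. Of the 683 lower ones it was 56.1%, with a median of 0.02. Over all tested probes the share was 48.8% and the median -0.01. Probes that G-CSF moved by over 2-fold in culture, at an adjusted p below 0.05, were read too. Their median chemokine change was 0.01 where G-CSF raised them (515 probes) and 0.02 where it lowered them (714 probes).

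The probe with the smallest p for a chemokine change that differed with G-CSF belonged to Cldnd1, a claudin-domain protein. Its chemokine change was -0.44 with G-CSF, while without G-CSF it was undetected on the array with no addition and at least 2.61-fold higher with a chemokine (limma interaction, adjusted p = 0.911). Dicer1, which cuts microRNA precursors, likewise had -0.41 with G-CSF and was at least 2.35-fold higher without G-CSF, over an undetected level. Frat1, a binding protein of GSK3, was at least 1.68-fold higher with a chemokine in the presence of G-CSF, where it was undetected on the array with G-CSF alone, and had -1.03 without G-CSF. These were named after their values were seen, and the folds compare observed levels without sampling error.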
